A study of Homo sapiens with 6 samples.

Results

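The AP-1 and immediate early genes examined here are FOS, FOSB, FOSL1, FOSL2, JUN, JUNB, JUND, EGR1, IER2 and IER3. They were chosen by symbol from a gene table of 6 K562 RNA-seq libraries, with earlier results from the same libraries already known, so their levels and differences between groups are given as a description. All 10 are among the 12486 genes that the table lists, and all 10 were among the 12276 that averaged 0.1 FPKM or more and entered the fit. K562 is a human line of chronic myeloid leukemia cells with the Bcr-Abl fusion kinase. All libraries are from K562 cells with a stably expressed shRNA, 3 with a control shRNA (sh-luc) and 3 with an shRNA against the long noncoding RNA lncRNA-IUR1 (sh-IUR1), which is lncRNA-up91 in the labels. By the methods, the 3 cell groups of each arm were independent, with no further detail on clones or infections. The libraries of each group are named by their labels as r1, r2 and, where the label has no number, unnumbered. No drug treatment is given in the labels of any library. The question the comparison addresses is which transcripts differ between control and lncRNA-IUR1 knockdown cells. Depletion of lncRNA-IUR1 was not examined, as its own level was not analysed here.

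AP-1 is a dimeric transcription factor made of leucine-zipper proteins. JUN, JUNB and JUND can pair with one another or with a FOS family protein (FOS, FOSB, FOSL1 or FOSL2), and the FOS proteins need a JUN partner to bind DNA stably. FOS, JUN, EGR1 and the IER genes are textbook immediate early genes, which growth factor or stress signals through MAP kinases switch on within minutes, without new protein synthesis, and whose mRNAs and proteins are short-lived. JUND is the family member with the steadiest expression in many cells, and FOSL1 is a later, more stable FOS protein that is itself a target of AP-1. In Bcr-Abl leukemia cells the kinase signals through RAS and MAP kinases, the pathway that feeds these promoters.

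Promoter sequence is shown for the genes whose levels or control sequences the description below turns on. The set of RefSeq (GRCh38.p14) promoters used here held 8 of the 10 genes, FOS, FOSB, FOSL2, JUN, JUNB, JUND, EGR1 and IER2. Each window has 300 bases, 250 before and 50 after the start of the gene, and reads 5′ to 3′ on the strand of the gene. Capitals mark matches, on either strand, to the sequences searched. These were the CREB and ATF site TGACGTCA, the JUN promoter element TGACATCA, the AP-1 site TGANTCA, the shorter CREB and ATF sequence TGACG, the CArG box bound by SRF, and the EGR1 site GCGTGGGCG. TGACG is contained in TGACGTCA, so those matches overlap. JUN is shown from chr1:58783998-58784297 (minus strand), JUND from chr19:18281573-18281872 (minus strand), EGR1 from chr5:138465229-138465528 (plus strand) and FOS from chr14:75278578-75278877 (plus strand).
JUN: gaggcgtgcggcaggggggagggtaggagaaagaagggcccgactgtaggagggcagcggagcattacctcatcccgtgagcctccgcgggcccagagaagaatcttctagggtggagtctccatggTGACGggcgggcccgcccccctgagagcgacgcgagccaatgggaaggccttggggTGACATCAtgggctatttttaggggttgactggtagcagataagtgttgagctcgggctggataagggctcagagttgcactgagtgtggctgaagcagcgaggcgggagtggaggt
JUND: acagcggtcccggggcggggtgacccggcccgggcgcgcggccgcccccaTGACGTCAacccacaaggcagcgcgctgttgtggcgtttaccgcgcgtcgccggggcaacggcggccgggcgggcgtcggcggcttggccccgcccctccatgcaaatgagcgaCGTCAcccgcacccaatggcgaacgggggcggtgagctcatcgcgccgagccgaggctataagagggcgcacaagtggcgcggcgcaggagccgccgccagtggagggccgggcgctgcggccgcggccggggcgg
EGR1: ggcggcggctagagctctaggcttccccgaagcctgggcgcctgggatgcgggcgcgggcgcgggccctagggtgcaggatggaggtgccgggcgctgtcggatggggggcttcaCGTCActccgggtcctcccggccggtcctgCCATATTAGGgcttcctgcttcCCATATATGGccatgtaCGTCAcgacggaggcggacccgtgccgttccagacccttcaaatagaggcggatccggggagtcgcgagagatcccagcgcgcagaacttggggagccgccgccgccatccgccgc
FOS: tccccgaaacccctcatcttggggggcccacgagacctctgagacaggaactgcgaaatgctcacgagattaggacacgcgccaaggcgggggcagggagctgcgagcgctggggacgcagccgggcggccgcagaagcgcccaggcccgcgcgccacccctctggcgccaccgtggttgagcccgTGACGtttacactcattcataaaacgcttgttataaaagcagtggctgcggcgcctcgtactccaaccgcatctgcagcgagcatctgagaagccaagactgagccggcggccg

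In the JUN window TGACATCA lay from -67 to -60 relative to the start, and this 8-base sequence was present in 2.71% of 27305 promoters and in 1.35% of the 10088 promoters of genes listed in the table. JUND carried TGACGTCA from -200 to -193, present in 1.98% of all promoters and 3.42% of those of listed genes. EGR1 had a pair of CArG boxes, from -105 to -96 and from -83 to -74, and a CArG box was present in 1.29% of all promoters and 1.01% of those of listed genes. The full AP-1 site TGANTCA was found in 1 of the 8 windows, that of FOSL2, from 5 to 11, against 7.76% of all promoters and 4.46% of those of listed genes. All 8 windows held at least 1 TGACG, which is a short sequence present in 25.01% of all promoters and 34.75% of those of listed genes. GCGTGGGCG was in 0 of the 8 windows and in 0.78% of all promoters. A match describes the letters only.

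The genes also share a compact structure. In GENCODE release 44 (hg38), all 10 canonical transcripts had at most 4 exons, which was true of 20.9% of 11814 protein-coding genes tested, and the median was 2 exons against 9. JUN (chr1:58780791-58784047), JUNB (chr19:12791486-12793315) and JUND (chr19:18279694-18281622) each have a single exon, as did 2.3% of the genes tested. The remaining genes are FOSL1 (chr11:65892049-65900388), FOS (chr14:75278828-75282230), FOSB (chr19:45467996-45475179), FOSL2 (chr2:28392858-28417317), EGR1 (chr5:138465479-138469303), IER2 (chr19:13150411-13154911) and IER3 (chr6:30743199-30744547). The AU-rich nonamer TTATTTATT, a sequence known from unstable mRNAs, was present in the 3′ UTR of FOS and FOSL2, 2 of the 10 genes, and in 9.0% of the genes tested. At least 3 copies of ATTTA were present in 5 of the 10, against 43.9% of the genes tested. FOSB, FOSL2, JUNB, IER2 and IER3 overlap another annotated gene. Use of strand in the counting is not given in the sources used here, so their values may include reads of that gene. JUN, JUND, FOSL1, FOS and EGR1 overlap no other gene in this annotation.

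Among the libraries, 1 stood apart most for JUN, JUND and FOSL1, the unnumbered sh-luc library. It was the lowest of the 6 libraries for 38.4% of all genes tested and the highest for 24.1%. JUN, JUNB, JUND and IER2 were lowest there, 4 of the 10, and FOSL1 was highest there, 1 of the 10. These counts are not clearly above the shares of all genes. JUNB was only just lowest there, at 21.43 FPKM against 22.02 FPKM in sh-IUR1 r1. Differences are therefore given with all 6 libraries and, for the genes and lists described, without this one. GAPDH ranged from 2321.78 to 2510.56 FPKM and ACTB from 1262.08 to 1367.91 FPKM over the libraries. All 12 K562 markers were tested. Of these, 1 was under an unadjusted p of 0.05 from limma, beside 2.65% of all genes, and 1 was without overlap, beside 7.07%. Without the unnumbered sh-luc library, CD33, HBE1 and TAL1 were without overlap, 3 of the 12 beside 12.6% of all genes. The markers with the largest log2 differences were CD33 (0.34, unadjusted p of 0.0247 from limma, 0.47 without the unnumbered sh-luc library), HBG1 (-0.19, and -0.063 without it), BCR (0.16, and -0.018 without it) and HBE1 (-0.11, and -0.069 without it), of which HBE1 did not overlap between groups. BCR was at 17.95 FPKM in the unnumbered sh-luc library and between 25.39 and 27.66 FPKM in the other 5, and the erythroid factor GATA1 was between 182.31 and 200.42 FPKM in all 6. Of 12 markers of other cell types, 6 were tested. EPCAM, KRT18 and LYZ had means of 41.1, 293 and 114 FPKM, and the mean log2 level of the 6 lay between 3.65 and 3.72 in sh-luc and between 3.63 and 3.69 in sh-IUR1 libraries. The T cell marker CD3E was not among the genes tested. Sequencing depth is unknown, so no counting interval is given.

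As FPKM is per length, the genes can be ranked within a library. IER2 (mean of 6 libraries 68.6 FPKM) and JUND (60.4 FPKM) were highest, with overlapping ranges. JUN (26.3 FPKM) and JUNB (23.3 FPKM) followed, and their ranges overlapped as well. FOSL1 (12.7 FPKM), EGR1 (11.5 FPKM) and IER3 (9.44 FPKM) formed the next group, in which each gene overlapped its neighbour. FOSB, FOS and FOSL2 were at 0.582, 0.555 and 0.343 FPKM, with overlapping ranges. Neighbours across these steps, JUND and JUN, JUNB and FOSL1, and IER3 and FOSB, did not overlap. JUN in the unnumbered sh-luc library, at 6.34 FPKM, was however below every library of IER3, the lowest of which was 8.46 FPKM. The median gene tested had a mean of 10.6 FPKM. Thus 7 of the genes were at 5 FPKM or more and 3 of the FOS family were under 1 FPKM. In bulk RNA, fewer cells with a transcript and less of it per cell cannot be told apart.

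**Figure D1:**
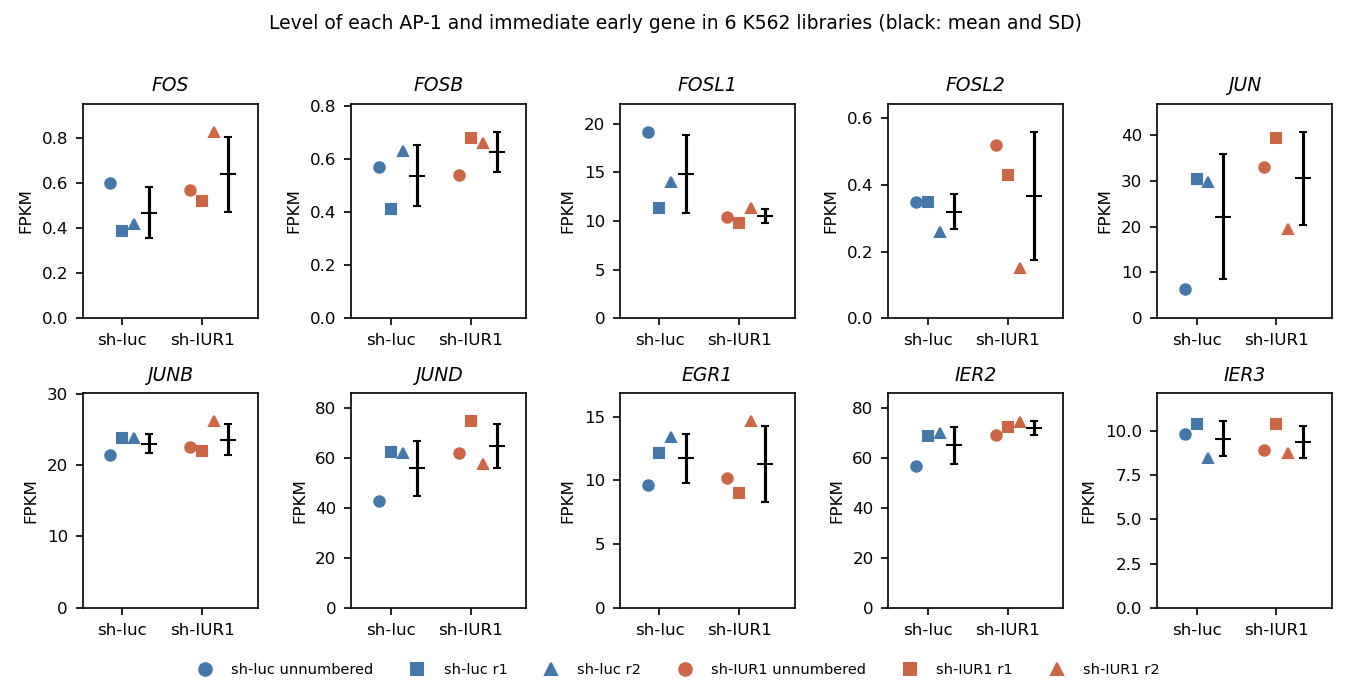
Level in FPKM (y axis, linear from 0, its own scale for each gene) of the 10 genes in the 3 sh-luc and 3 sh-IUR1 libraries. Points are single libraries, black bars are the group mean and SD (n = 3). JUN in the unnumbered sh-luc library sits at 6.34 FPKM, under the other 5 libraries, and FOSL1 is the gene whose groups do not overlap.

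None of the 10 genes passed the test used across all genes. Limma called 0 of 12276 genes higher (0% of those tested) and 0 lower (0%) in sh-IUR1 at an adjusted p under 0.05, and the adjusted p of the 10 genes ranged from 0.930 to 0.968. At an unadjusted p under 0.05 there was 1 of the 10, FOSL1, against 325 genes (2.65%) of all tested. Groups without overlap were seen for 1 of the 10, again FOSL1, against 868 genes (7.07%) of all tested. Of the log2 differences of FPKM + 1 (sh-IUR1 minus sh-luc), 7 were positive and 3 negative, and their median was 0.062, beside a median of 0.019 over all genes tested. Without the unnumbered sh-luc library, 5 differences were positive and 5 negative, with a median of 0.021 beside 0.0047 over all genes. FOS and FOSL1 then had groups without overlap, 2 of the 10, against 12.6% of all genes tested, and 0 genes were called.

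JUN, the founding AP-1 protein, was expressed at 6.34, 30.27 and 29.81 FPKM in the unnumbered, r1 and r2 sh-luc libraries and at 32.87, 39.29 and 19.38 FPKM in the unnumbered, r1 and r2 sh-IUR1 libraries. The unnumbered sh-luc library was far below the others, and the remaining sh-luc libraries lay inside the range of the sh-IUR1 libraries. Group means were 22.1 ± 13.7 FPKM in sh-luc and 30.5 ± 10.2 FPKM in sh-IUR1 (SD, n = 3 each), a log2 difference of 0.66 with a standard error of 0.48. Without the unnumbered sh-luc library the sh-luc mean was 30.0 FPKM, the ratio of means was 1.02, and the log2 difference was -0.035 (standard error 0.21). The direction of the JUN difference thus depended on 1 control library, in which JUN was at 0.209 of the mean of the other 5. Its size depended on sh-IUR1 r2 as well. Without sh-IUR1 r2 the log2 difference was 0.94 and the JUN groups did not overlap, beside 25.2% of all genes tested without overlap in that setting.

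The spread of JUN was among the widest of the table. Its highest library was 6.20 times its lowest, and on the log2 scale its range was 2.46. Of 12276 genes tested, 2 had a range at least that wide, JUN and SULT1A3, and the latter has a near-identical copy, SULT1A4, so its values are uncertain. Among 8203 genes averaging 5 FPKM or more, 3 had a ratio of highest to lowest at least that of JUN, namely JUN, SULT1A3 and SULT1A4, where the median ratio was 1.20. FOSL1 had a range of 0.90, matched or exceeded by 1.27% of genes, and JUND a range of 0.78, matched or exceeded by 2.12%. EGR1 had a range of 0.65 (4.33% of genes). JUNB, IER3 and FOSB had ranges between 0.25 and 0.27, close to the median gene at 0.26.

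JUND, the JUN protein with the highest level here, was at 43.05, 62.5 and 62.23 FPKM in sh-luc and at 62.13, 74.82 and 57.66 FPKM in sh-IUR1 (unnumbered, r1 and r2 in each). As for JUN, the unnumbered sh-luc library was lowest, sh-IUR1 r2 came next and sh-IUR1 r1 was highest. Means were 55.9 ± 11.2 and 64.9 ± 8.90 FPKM (SD, n = 3), and the log2 difference was 0.22 (standard error 0.14), which was 0.047 without the unnumbered sh-luc library. The authors' clustering of expression profiles into 9 clusters placed JUN and JUND in the same one, cluster 6, which holds 13.9% of the genes listed.

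JUNB, which often opposes JUN in proliferation, was at 21.43, 23.75 and 23.83 FPKM in sh-luc and at 22.57, 22.02 and 26.11 FPKM in sh-IUR1. Its groups overlapped, and it was among the steadiest of the 10 genes. Means were 23.0 ± 1.36 and 23.6 ± 2.22 FPKM (SD, n = 3), and the log2 difference was 0.031 (standard error 0.082), or -0.017 without the unnumbered sh-luc library.

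FOSL1, which encodes the protein FRA-1, was at 19.17, 11.35 and 13.98 FPKM in sh-luc and at 10.41, 9.83 and 11.28 FPKM in sh-IUR1. Every sh-IUR1 library was below every sh-luc library, but the closest pair was 11.28 against 11.35 FPKM, and the groups overlapped after median-ratio scaling of the libraries. Means were 14.8 ± 3.98 and 10.5 ± 0.730 FPKM (SD, n = 3), a ratio of 0.708. The log2 difference was -0.43 with a standard error of 0.15. Its unadjusted p was 0.0169 and its p adjusted over all genes was 0.930 (limma). Without the unnumbered sh-luc library, in which FOSL1 was highest, the log2 difference was -0.24 (standard error 0.097). The sign did not change when any library was left out, with values from -0.60 to -0.24.

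FOS, the partner of JUN in the classical AP-1 dimer, was low, at 0.60, 0.39 and 0.42 FPKM in sh-luc and 0.57, 0.52 and 0.83 FPKM in sh-IUR1. FOSB was at 0.57, 0.41 and 0.63 FPKM and at 0.54, 0.68 and 0.66 FPKM. FOSL2, which encodes FRA-2, was at 0.35, 0.35 and 0.26 FPKM and at 0.52, 0.43 and 0.15 FPKM. In each of these genes the groups overlapped, and the log2 differences were 0.16 (standard error 0.095), 0.084 (0.083) and 0.041 (0.11). These were 0.22, 0.10 and 0.057 without the unnumbered sh-luc library. At levels under 1 FPKM the added pseudocount of 1 holds these differences close to 0. With a pseudocount of 0.1 they were 0.37 for FOS, 0.20 for FOSB and 0.057 for FOSL2. Leaving out 1 library moved FOS to between 0.074 (without sh-IUR1 r2) and 0.22, and FOSB to between 0.023 (without sh-luc r1) and 0.13 (without sh-luc r2).

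EGR1, a zinc finger factor driven by SRF and ELK proteins, was at 9.61, 12.14 and 13.45 FPKM in sh-luc and at 10.16, 8.99 and 14.64 FPKM in sh-IUR1. Its lowest and its highest library both belonged to sh-IUR1. Means were 11.7 ± 1.95 and 11.3 ± 2.98 FPKM (SD, n = 3), with a log2 difference of -0.069 (standard error 0.16). It was -0.20 without the unnumbered sh-luc library, and turned positive without sh-luc r2 (0.028) or without sh-IUR1 r1 (0.065). The profile of EGR1 over the libraries was unlike that of JUN, as JUN was highest in sh-IUR1 r1, where EGR1 was lowest.

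IER2, a nuclear immediate early protein, was at 56.72, 68.83 and 70.11 FPKM in sh-luc and at 69.22, 72.36 and 74.56 FPKM in sh-IUR1. The groups overlapped through sh-luc r2, which exceeded the unnumbered sh-IUR1 library. Means were 65.2 ± 7.39 and 72.0 ± 2.68 FPKM (SD, n = 3), and the log2 difference of 0.15 (standard error 0.083) was 0.051 without the unnumbered sh-luc library. IER3, a stress-inducible gene linked to cell survival, was at 9.82, 10.35 and 8.46 FPKM in sh-luc and at 8.93, 10.36 and 8.74 FPKM in sh-IUR1. Its means were 9.54 ± 0.975 and 9.34 ± 0.886 FPKM (SD, n = 3), a difference of -0.027 on the log2 scale (standard error 0.096), or -0.0060 without the unnumbered sh-luc library.

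**Figure D2:**
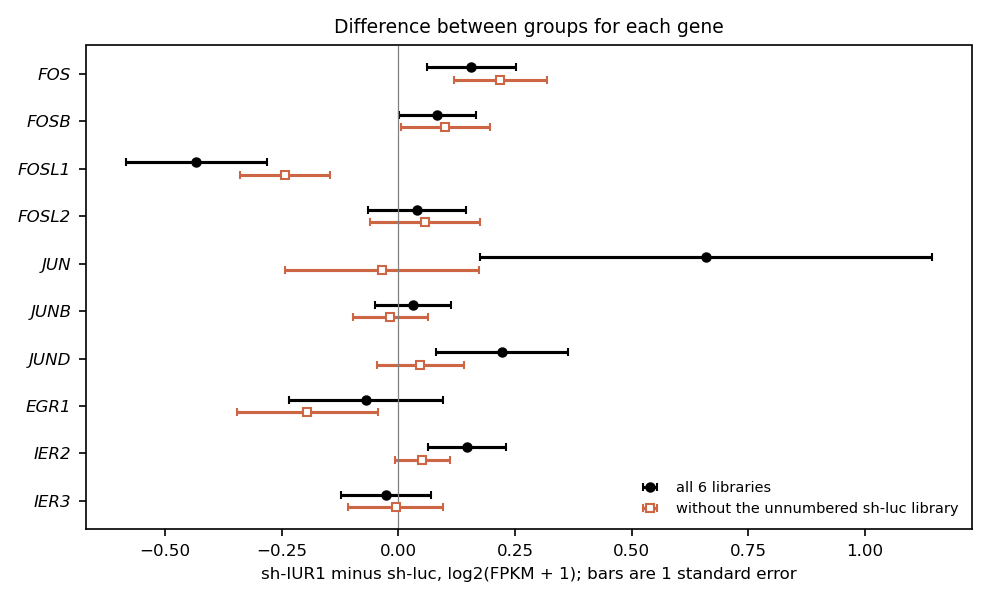
Difference between sh-IUR1 and sh-luc in log2(FPKM + 1) (x axis) for each of the 10 genes (y axis), with all 6 libraries (black) and without the unnumbered sh-luc library (open squares). Bars are 1 standard error. JUN moves from 0.66 to -0.035 when that library is left out, and FOSL1 from -0.43 to -0.24.

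FPKM values were also summed within each family. The JUN family summed to 70.82, 116.52 and 115.87 FPKM in sh-luc and to 117.57, 136.13 and 103.15 FPKM in sh-IUR1. The FOS family summed to 20.69, 12.5 and 15.29 FPKM in sh-luc and to 12.04, 11.46 and 12.92 FPKM in sh-IUR1. The unnumbered sh-luc library thus had both the lowest JUN family sum and the highest FOS family sum. The JUN family sum exceeded the FOS family sum in every library, with a ratio of 3.42, 9.32 and 7.58 in the sh-luc libraries, then 9.76, 11.9 and 7.98 in the sh-IUR1 libraries. The log2 ratio of group means, sh-IUR1 to sh-luc, was 0.23 for the JUN family and 0.034 without the unnumbered sh-luc library. For the FOS family it was -0.41, and -0.19 without that library.

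Within the JUN family, JUND supplied between 52.8% and 60.8% of the sum and JUNB between 16.2% and 30.3%. JUN supplied 8.95% in the unnumbered sh-luc library and between 18.8% and 28.9% in the other 5. FOSL1 made up most of the FOS family, with 92.7%, 90.8% and 91.4% in the sh-luc libraries. In the sh-IUR1 libraries it made up 86.5%, 85.8% and 87.3%. These shares did not overlap between groups (91.6 ± 0.942% against 86.5 ± 0.766%, SD, n = 3). The share is not independent of the FOSL1 level, and the rest of the sum is made of 3 genes under 1 FPKM, so the difference is given as a description. The ratio of JUN to FOSL1 ranged from 0.331 in the unnumbered sh-luc library to 3.997 in sh-IUR1 r1, and the other sh-luc libraries, at 2.67 and 2.13, lay within the range of the sh-IUR1 libraries.

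**Figure D3:**
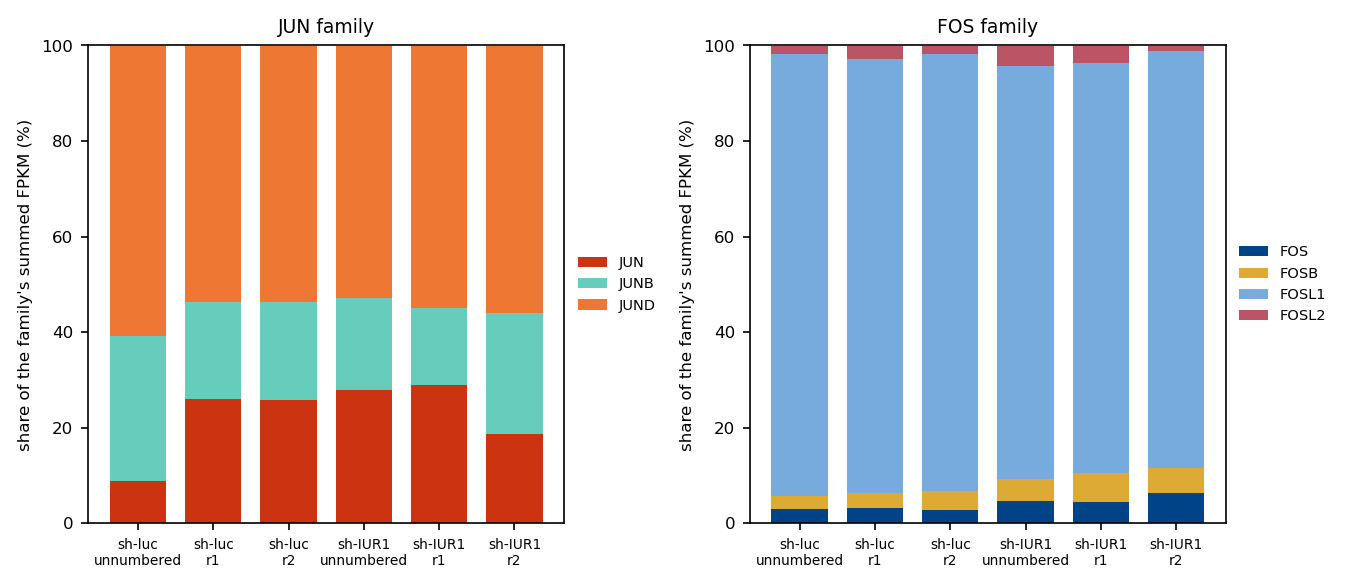
Share of each gene in the summed FPKM of its family (y axis, percent) in each of the 6 libraries (x axis), for the JUN family (left) and the FOS family (right). JUND is the largest part of the JUN family in every library, FOSL1 makes up at least 85.8% of the FOS family, and the JUN share is smallest, 8.95%, in the unnumbered sh-luc library.

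The other genes of the pathway were described from lists of the same kind, also drawn up with earlier results known, and 0 genes of any list were called. Of 25 other immediate early genes tested, 19 differences were positive and 6 negative, with a median of 0.11. Without the unnumbered sh-luc library, in which 17 of the 25 had their lowest value, 12 were positive and 13 negative, with a median of -0.0017. ATF3, a stress-induced partner of JUN, was at 16.25, 59.16 and 50.18 FPKM in sh-luc and 62.56, 70.17 and 43.2 FPKM in sh-IUR1, a log2 difference of 0.64 (standard error 0.39), or 0.076 without the unnumbered sh-luc library. It had the same order of libraries as JUN. GADD45B, KLF10 and KLF6 had differences of 0.43, 0.41 and 0.27, which were 0.20, 0.11 and -0.040 without that library.

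Among 24 other leucine-zipper factors of the AP-1 and CREB families, 18 differences were positive and 6 negative, with a median of 0.092. Next to ATF3, which is on both lists, the largest were 0.48 for JDP2, a repressor that pairs with JUN, 0.31 for ATF5 and 0.24 for BATF2. JDP2 was at 4.37 FPKM in the unnumbered sh-luc library and between 9.55 and 15.71 FPKM in the other 5. Leaving out the unnumbered sh-luc library, 16 were positive and 8 negative, with a median of 0.037, and JDP2, ATF5 and BATF2 were at 0.079, 0.17 and 0.0016.

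The kinases and factors upstream of immediate early transcription varied less. Of 26 tested, 14 differences were positive and 12 negative, with a median of 0.017. The largest were 0.18 for CREB1, 0.093 for RPS6KA5 (the kinase MSK1), 0.083 for MAPK8 (JNK1) and -0.074 for ELK4. MAPK8, a kinase of JUN, did not overlap between groups, at 10.5, 10.34 and 10.12 FPKM in sh-luc and 11.34, 10.92 and 10.71 FPKM in sh-IUR1. It was the only gene of the 26 without overlap, beside 7.07% of all genes. With the unnumbered sh-luc library omitted, 12 differences were positive and 14 negative, with a median of -0.0026. CREB1, RPS6KA5 and MAPK8 were then at 0.23, 0.080 and 0.094, and ELK4 turned to 0.039.

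Of 17 genes that act on the decay of immediate early mRNAs or AP-1 proteins, 12 differences were positive and 5 negative, with a median of 0.032. The AU-rich element binding proteins ZFP36L1, ZFP36L2 and ZFP36 had differences of 0.21, -0.18 and 0.12, and the exonuclease XRN1 had 0.11. Leaving out the unnumbered sh-luc library, they were at 0.099, -0.081, 0.12 and 0.11, and the median of the list was 0.039, with 11 positive and 6 negative. Of 12 AP-1 target genes tested, FOSL1 included, 5 differences were positive and 7 negative, with a median of -0.031. FOSL1, IL6 and TIMP1 did not overlap between groups, 3 of the 12, beside 7.07% of all genes. FOSL1 and IL6 were under an unadjusted p of 0.05, 2 of the 12, beside 2.65% of all genes. Without the unnumbered sh-luc library CXCL8 joined those without overlap, 4 of the 12 beside 12.6% of all genes, and the median was -0.018. IL6 was at 1.9, 1.91 and 1.82 FPKM in sh-luc and 3.1, 2.43 and 1.99 FPKM in sh-IUR1, a log2 difference of 0.27. TIMP1 had a difference of -0.11, MT2A of -0.15 and CXCL8 of 0.11. When that library was left out, the values were 0.28 for IL6, -0.071 for TIMP1, -0.095 for MT2A and 0.15 for CXCL8.

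JUN had the same order of libraries as the mean of the integrated stress genes. This list holds ATF4, the factor made when translation is limited by stress, and genes it is known to activate. All 20 genes tested had a positive difference, with a median of 0.33, and 20 of 20 were lowest in the unnumbered sh-luc library. Without that library 19 differences were positive and 1 negative, with a median of 0.046. Averaged on the log2 scale, their level was 5.50, 6.47 and 6.31 in the sh-luc libraries. It was 6.50, 6.66 and 6.19 in the sh-IUR1 libraries. This is the library order of JUN, from the unnumbered sh-luc library through sh-IUR1 r2, sh-luc r2, sh-luc r1 and unnumbered sh-IUR1 to sh-IUR1 r1. Of the 20 genes, 11 had exactly this order, and so did 312 (3.80%) of the 8203 genes averaging 5 FPKM or more. ATF4 itself did not have this order. It was at 252.24, 294.65 and 289.4 FPKM in sh-luc and at 286.09, 279.58 and 297.5 FPKM in sh-IUR1. The log2 difference of ATF4 was 0.048, and ATF4 was the gene with a negative difference without the unnumbered sh-luc library. SESN2, DDIT4, CTH and CHAC1 had differences of 0.57, 0.57, 0.56 and 0.50, and of 0.083, 0.010, 0.17 and 0.022 without the unnumbered sh-luc library. DDIT4, an inhibitor of mTOR signaling, was at 169.38 FPKM in the unnumbered sh-luc library and between 478.89 and 620.44 FPKM in the other 5. The part of this stress pattern in the JUN values was not tested.

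**Figure D4:**
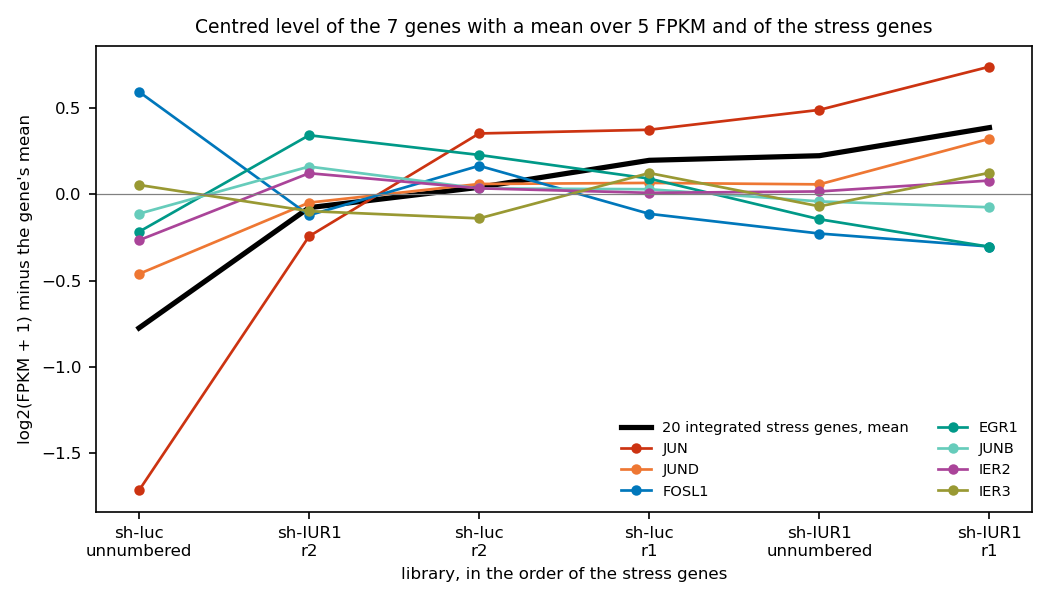
Level of the 7 genes with a mean over 5 FPKM, as log2(FPKM + 1) minus the gene's mean over libraries (y axis), with the mean of 20 integrated stress genes in black. The 6 libraries on the x axis stand in the order of the stress genes. JUN runs from -1.72 to 0.74 in that order, JUND follows with a smaller range, and FOSL1 runs the other way, from 0.60 to -0.30.

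Likeness of profile was measured as the root mean square difference of centred log2(FPKM + 1) over the 6 libraries. All genes of a library share the depth and scaling of that library. The genes nearest to the mean profile of the 7 genes over 5 FPKM were KRABD3, POLR2A, ZC3H7B, CDC42BPG, ABL1, ZNF282, HPS4 and SUPT6H, at 0.0188 to 0.0246 among 8196 genes compared. The median gene was at 0.148, and a flat profile would be at 0.140. POLR2A, the largest subunit of RNA polymerase II, was at 42.52 FPKM in the unnumbered sh-luc library and between 53.33 and 58.57 FPKM in the other 5. The mean profile is mainly a low value in that library, -0.30, beside values between 0.012 and 0.11 in the others. JUN sets most of it, at -1.72 in that library. The mean of the other 6 genes was -0.067 there and between -0.067 and 0.065 in the other libraries, and FOSL1 and IER3 were above their own means in that library. In a ranking added after the values had been seen, the genes nearest to JUN were INHBE (0.139), ATF3 (0.170), H1-4 (0.226), SESN2 (0.240) and DDIT4 (0.250). INHBE was at 6.13 FPKM in the unnumbered sh-luc library and between 17.76 and 35.36 FPKM in the other 5. Nearest to FOSL1 were GMFG (0.0683), CLP1 (0.0831), GYPB (0.0854), DEGS1 (0.0886) and RPL36AL (0.0955). GYPB, which encodes a red cell glycophorin, was at 77.47 FPKM in the unnumbered sh-luc library and between 43.83 and 54.58 FPKM in the other 5.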

How the data were processed

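RNA-seq was performed on total RNA from K562 cells, with 3 sh-luc and 3 sh-IUR1 libraries. According to the methods, the authors trimmed and masked reads, mapped them to hg38 and calculated RPKM. The submitters' processing notes name samtools 0.1.19, and the aligner is not given in the sources used here. The deposited values are FPKM with 2 decimals. The authors also deposited a z-score of the FPKM per library, which is a score not used here, and, for each gene, a cluster number with a fraction, its membership in that cluster. Fractions were not used in a test. The smallest standard deviation of a listed gene over the libraries was 0.0501 FPKM, so steadier genes are outside every count. The sums of the listed FPKM were 579820 to 606240, which are not depths. Steps in low values did not give whole reads, with at most 50% of values whole in any library, so depth is unknown.

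Entrez identifiers were matched to RefSeq symbols (12363 of 12486). Genes averaging 0.1 FPKM or more entered a fit of log2(FPKM + 1) in limma 3.58.1 under R 4.3.3 (lmFit, eBayes with trend), sh-IUR1 against sh-luc without covariates, with Benjamini-Hochberg adjustment over all genes tested. This scale understates changes of low genes. The fit was tested on simulated data with independent noise for each gene. No simulated library stood apart over many genes, so that test does not cover such a library. No model for counts was used, since FPKM is normalized. Gene models are from GENCODE release 44 and promoters from RefSeq. Python 3.11.15, numpy 2.4.6, pandas 2.3.3 and matplotlib 3.10.9 were used for other steps. The genes and lists were chosen with earlier results of these data known. Named genes are the 10 genes, up to 4 genes per list with the largest absolute difference and an average of 1 FPKM or more, the 8 genes nearest in profile, and reference genes. GATA1, SULT1A3 and SULT1A4, the genes nearest to JUN or FOSL1 alone, and genes named to complete a count were chosen after their values were seen. The alternatives were each library left out in turn, a replicate block, 0.1 as pseudocount, scaling by median ratios or by quantiles, all listed genes or only those averaging 1 FPKM, eBayes with no trend, and an unmoderated model with unadjusted p-values.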

Additional observations from a re-analysis of the deposited data

How the results depend on the processing

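Over the alternatives tried, 128 of 137 values of the 10 genes kept their direction, 9 reversed, and 0 were called. The filters, eBayes with no trend, the unmoderated model and the replicate block leave each log2 difference unchanged. Values under these settings could therefore not reverse, and the count does not measure robustness. The lowest adjusted p was 0.667. All reversals came from leaving out 1 library, and the ranges of the log2 difference were then -0.035 to 1.01 for JUN, -0.042 to 0.076 for JUNB, -0.041 to 0.16 for FOSL2, -0.26 to 0.065 for EGR1 and -0.10 to 0.029 for IER3. JUN reversed without the unnumbered sh-luc library. JUNB reversed without that library (-0.017) or sh-IUR1 r2 (-0.042), FOSL2 without the unnumbered sh-IUR1 library (-0.041), and EGR1 without sh-luc r2 (0.028) or sh-IUR1 r1 (0.065). IER3 reversed without sh-luc r1 (0.029), the unnumbered sh-IUR1 library (0.00090) or sh-IUR1 r2 (0.015). The number of the 10 genes without overlap was 0 after median-ratio scaling (7.32% of all genes) and 2 after quantile normalization (6.98%). It was 1 to 3 with a library left out, which raises the share of all genes as well. It was 2 without the unnumbered sh-luc library (12.6%) or sh-luc r2 (14.2%), 3 without the unnumbered sh-IUR1 library (11.9%) or sh-IUR1 r2 (25.2%), and 1 without sh-luc r1 (22%) or sh-IUR1 r1 (14.2%). These scalings moved the median of all genes by -0.017 and -0.021. An unmoderated model called 207 genes higher and 137 lower at an unadjusted p under 0.05, where limma at an unadjusted p gave 203 and 122. The cause of the other changes was not tested.

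The labels do not say whether libraries with the same replicate number were paired. Deviations from the group means correlated at 0.044 for the unnumbered libraries, 0.385 for r1 and -0.340 for r2. Within a group these deviations sum to 0 for each gene, so 1 outlying library shifts the others. The correlations therefore cannot decide whether the libraries were paired. With the replicate block, 0 genes were called, 355 were higher and 178 lower at an unadjusted p under 0.05 (203 and 122 without it), and the JUN difference was 0.66 with an adjusted p of 0.947 from limma. The depth behind the FPKM values is unknown, which limits FOS, FOSB and FOSL2 most.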
